A study of Mus musculus with 20 samples.

Results

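Potassium channel genes are described here as the protein-coding genes whose mouse symbol starts with Kcn, which cover the pore-forming subunits of the potassium channels and most of their auxiliary subunits. The counted Ensembl gene identifiers were given symbols with an annotation of GRCm38, which found 94 such genes among 55487 identifiers. Another 5 genes with a Kcn symbol, the antisense transcript Kcnq1ot1 among them, are annotated as noncoding and were left out. The genes were chosen by symbol and not by any measured value.

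Potassium channels set the resting membrane potential and let potassium leave the cell. In microglia, the resident macrophages of the brain, two-pore channels carry a background potassium current that is linked to surveillance by their processes and to inflammasome activation. Inward rectifiers and the calcium-activated and voltage-gated channels Kcnn4 and Kcna3 have been studied mainly in activated microglia.

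RNA labelled as from microglia was sequenced from cortex and brainstem of 10 mice in a model of neurodegeneration in histiocytosis, with 1 library per region and mouse and 20 libraries in all. The model carries a Braf allele that yields V600E BRAF, an always-on kinase upstream of ERK, once the drug-dependent Cre recombinase expressed from the Cx3cr1 locus removes a stop sequence. Per the labels' protocols, pregnant females received 1 injection of 4-hydroxytamoxifen at 37.5 mg per kg at embryonic day 9.5, so that recombination was aimed at the progenitors of microglia. Mutant mice carried the Braf allele and were heterozygous for the Cx3cr1 allele ("Braf VE; CX3 HET"), with 2 mice at the stage called end-stage, M1376 and M1524, and 3 at 2 months, M2617, M2621 and M2624. The end-stage controls were mouse M1375, with the Braf allele and no Cre ("Braf VE; CX3 WT"), and mouse M1521, with Cre and no Braf allele ("Braf WT; CX3 HET"). The 2-month controls M2618, M2629 and M2633 also carried Cre and no Braf allele. Cx3cr1 is also expressed by other macrophages, the share of recombined cells is not given, and the ages of the end-stage mice and the way the cells were purified are not given in the sources used here.

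For 5 of the 6 mice at 2 months the sample record and the count column carry different mouse numbers. Genotype at 2 months was read here through the number in the column name, and the record would give 4 of these mice, M2617, M2618, M2621 and M2633, the opposite genotype. Deposited counts summed to between 9395203 and 21171114 per library. The 10 microglial markers checked were present in all 20 libraries and summed to between 41457 and 70618 CPM, the unit of counts scaled to a common library total. In 10 of 10 mice, transcripts of the 10 hindbrain Hox genes checked were more abundant in the library labelled cortex, which goes against the region label, but their sums were low, at 0.325 to 4.04 CPM. The 6 forebrain genes checked summed to 0 to 1.68 CPM and were higher in the library labelled cortex in 6 of 10 mice. Libraries are therefore called cortex-labelled and brainstem-labelled. CPM values below use library sizes scaled by TMM factors, and errors are SD over mice unless called SE. Adjusted p-values come from edgeR's quasi-likelihood test with Benjamini-Hochberg adjustment over 16595 genes at a threshold of 0.05. That test gives no SE. The SE printed here is the absolute log2 difference divided by the square root of the test's F statistic, and it can mislead for genes with groups at 0. In bulk RNA, fewer cells of a type and less transcript per cell cannot be told apart.

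Most potassium channel genes were at or near the limit of detection. Of the 94, 88 had a count in some library, 44 reached 10 counts in at least 1 library and 11 had a count in all 20. Kcne4, Kcnj4, Kcnj5, Kcnj15, Kcnk15 and Kcnk16 had no count at all, which at 3 counts allows up to 0.147 CPM in the deepest and 0.318 CPM in the shallowest library. The filter on low counts kept 32 of the 94, or 34.0%, against 57.5% of all protein-coding genes. Only these 32 were tested. The other 62 had mean levels of at most 0.165 CPM and no single library above 1.40 CPM. Kcnj8, the pore of an ATP-sensitive channel, was among them with 1 count in 1 library. A mean of at least 1 CPM was reached by 15 members and a mean of at least 10 CPM by 8.

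By subfamily, the filter kept 5 of 14 two-pore, 5 of 15 inward rectifier, 3 of 8 calcium- or sodium-activated, 11 of 40 voltage-gated and 8 of 17 auxiliary genes. The members with a mean of at least 10 CPM were 3 two-pore, 2 calcium-activated, 1 inward rectifier, 1 voltage-gated and 1 auxiliary gene. Per kilobase of exon the order was Kcnk13 (mean 62.2 CPM per kb over 20 libraries), Kcnk6 (56.9), Kcnk12 (43.5), Kcnd1 (15.8), Kcnip3 (5.41), Kcnj2 (4.88), Kcnn4 (4.65), Kcna3 (3.41), Kcnj12 (1.71) and Kcnma1 (1.02 CPM per kb). The ranges of neighbouring genes in this order overlapped throughout. Two-pore genes made up 66.2% to 87.4% of the summed level per kilobase of all 94 members, with a median of 80.9%.

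**Figure D1:**
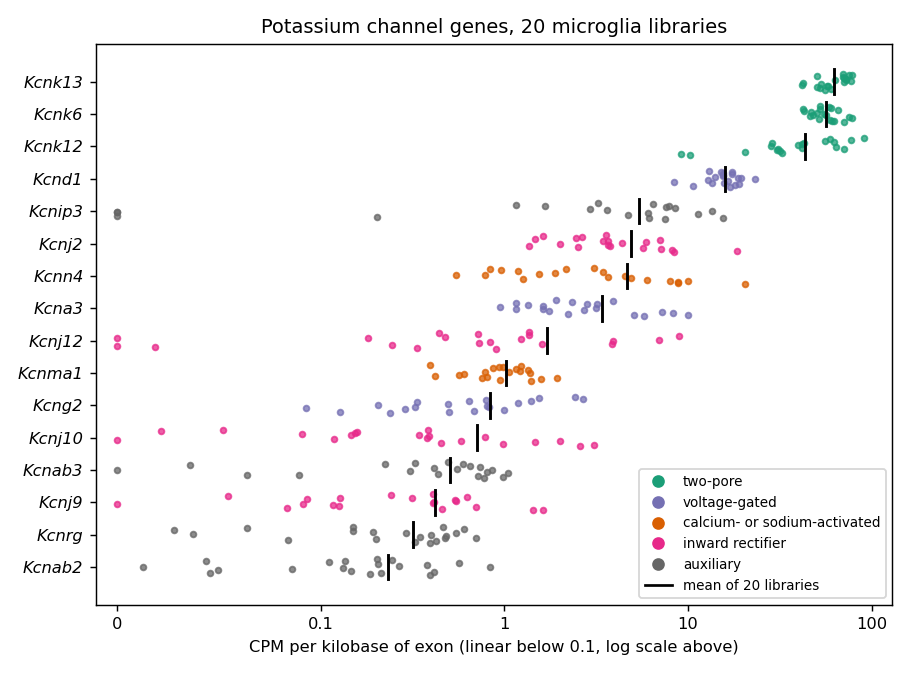
Level per kilobase of exon of the 16 potassium channel genes with the highest means, with 1 point for each of 20 libraries, colours for subfamilies and a black bar for the mean; the axis is linear below 0.1 and logarithmic above. Kcnk13, Kcnk6 and Kcnk12 have means of 43.5 to 62.2 CPM per kb, and Kcnip3 has libraries at 0.

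Kcnk13 (chromosome 12, 99964499 to 100062682, plus strand, GRCm38) encodes the two-pore channel THIK-1, the main background potassium channel of microglia. It stood between 130 and 243 CPM in all 20 libraries. Kcnk6 (chromosome 7, 29221926 to 29232515, minus strand) encodes TWIK-2, which in mouse macrophages carries potassium efflux upstream of the NLRP3 inflammasome. It stood between 175 and 325 CPM. Kcnk12 (chromosome 17, 87745801 to 87797994, minus strand) encodes THIK-2, a close relative of THIK-1 that carries little current on its own and can pair with it. It varied most of the 3, between 18.2 and 180 CPM. Kcnd1 (chromosome X, 7822289 to 7838280, plus strand), which encodes a transient A-type voltage-gated channel, stood between 44.5 and 122 CPM. Kcnj2 (chromosome 11, 111066164 to 111076821, plus strand), the strong inward rectifier of the Kir family, ranged from 7.42 to 101 CPM. Kcnn4 (chromosome 7, 24370263 to 24386690, plus strand), the intermediate-conductance calcium-activated channel, ranged from 2.80 to 105 CPM. The annotation lists no gene that overlaps Kcnk6, Kcnk12, Kcnd1, Kcnj2 or Kcnn4.

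Kcnn4 and Kcnk12 are the members that passed between genotypes, in opposite directions, and Kcnj2 passed between region labels with the smallest adjusted p after Kcnk12. Their promoters are given because the results turn on these genes. Each runs from 250 bases before to 50 bases after the annotated start, from RefSeq on GRCm38.p6, 5′ to 3′ on the gene's strand. Capitals mark the E-box CACGTG.
Kcnn4 promoter, chr7:24370013-24370312, plus strand: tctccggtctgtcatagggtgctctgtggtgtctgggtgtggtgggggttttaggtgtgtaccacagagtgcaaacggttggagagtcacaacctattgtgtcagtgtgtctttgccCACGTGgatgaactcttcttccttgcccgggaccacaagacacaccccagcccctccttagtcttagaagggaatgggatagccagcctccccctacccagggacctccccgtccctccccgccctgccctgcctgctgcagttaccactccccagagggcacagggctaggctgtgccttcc
Kcnk12 promoter, chr17:87797945-87798244, minus strand: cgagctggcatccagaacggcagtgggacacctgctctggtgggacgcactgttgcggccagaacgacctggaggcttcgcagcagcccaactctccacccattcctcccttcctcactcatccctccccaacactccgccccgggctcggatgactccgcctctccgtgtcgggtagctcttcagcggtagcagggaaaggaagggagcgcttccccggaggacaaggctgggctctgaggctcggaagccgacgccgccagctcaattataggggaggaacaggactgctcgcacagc
Kcnj2 promoter, chr11:111065914-111066213, plus strand: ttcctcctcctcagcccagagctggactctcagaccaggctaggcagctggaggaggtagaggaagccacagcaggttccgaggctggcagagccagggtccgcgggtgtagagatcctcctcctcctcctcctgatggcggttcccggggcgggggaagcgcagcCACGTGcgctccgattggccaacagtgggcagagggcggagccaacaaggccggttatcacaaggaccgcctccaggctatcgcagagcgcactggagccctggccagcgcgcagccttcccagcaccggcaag

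The E-box lay 133 bases before the start of Kcnn4 and 84 bases before that of Kcnj2, and it was absent from the Kcnk12 window. It was found on either strand in 7.15% of all 32851 promoters of this length and in 7 of the 94 promoters of the 69 members in the table. The other motifs searched on both strands were the AP-1 site TGANTCA, the ETS site CCGGAAGT and the PU.1 site GAGGAAGT. None of these lay in the 3 promoters shown, against 7.81%, 3.89% and 3.2% of all promoters. No searched motif overlapped another in these windows. The GC content was 59.7% for Kcnn4, 64.3% for Kcnk12 and 66.7% for Kcnj2.

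At end-stage, cortex-labelled mutant microglia held far more Kcnn4 transcript and less Kcnk12 transcript than controls. Kcnn4 stood at 45.1 CPM in mutant M1376 and 105 CPM in mutant M1524, against 4.02 CPM in control M1375 and 2.80 CPM in control M1521. Both mutant libraries were high and the groups did not overlap. The means were 74.9 ± 42.2 CPM in mutants and 3.41 ± 0.861 CPM in controls (n = 2 each), a log2 difference of 4.47 ± 0.70 SE with an adjusted p of 0.00159 by edgeR. Kcnk12 stood at 18.2 CPM in mutant M1376 and 20.3 CPM in mutant M1524, against 78.6 CPM in control M1375 and 55.7 CPM in control M1521. Its means were 19.2 ± 1.48 CPM in mutants and 67.2 ± 16.2 CPM in controls (n = 2 each), and it fell by 1.80 ± 0.29 SE on the log2 scale (adjusted p = 0.00211 by edgeR). These were the 2 of 32 tested members that passed, 1 higher and 1 lower, where 4.01% of all 16595 genes passed, 1.83% higher and 2.18% lower. Leaving out each of the 10 mice in turn gave log2 differences of 3.73 to 4.96 for Kcnn4 and −2.03 to −1.55 for Kcnk12. Only the end-stage mice are compared here. Without 1 of them a group holds 1 mouse, and leaving out a 2-month mouse removes no compared library. The median log2 difference was 0.31 over the 32 tested members and 0.02 over all genes tested.

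In the same libraries Kcnj2 was higher in both mutants than in both controls, and most so in M1376. It stood at 101 CPM in mutant M1376 and 45.8 CPM in mutant M1524, against 32.1 CPM in control M1375 and 23.8 CPM in control M1521. The groups did not overlap, but the test did not pass (log2 difference 1.39 ± 0.49 SE, adjusted p = 0.137 by edgeR, 0.0421 by DESeq2). Kcnj10, the inward rectifier best known from astrocytes, stood at 16.7 and 13.98 CPM in mutants, against 2.12 and 4.24 CPM in controls (log2 difference 2.26 ± 1.14 SE, adjusted p = 0.314). Kcna3, a voltage-gated channel of T cells and macrophages, stood at 9.64 and 10.99 CPM in mutants, against 1.80 and 6.02 CPM in controls (1.38 ± 0.77 SE, adjusted p = 0.367). Its counts may share reads with Gm27008, an antisense gene that overlaps it and had 2471 counts in all, since the strand setting of the counting is not given in the sources used here. Kcnj12, another strong inward rectifier, stood at 0.926 and 2.47 CPM in mutants, against 3.39 CPM in control M1375 and 19.2 CPM in control M1521 (−2.74 ± 1.32 SE, adjusted p = 0.292). Both libraries of mouse M1521 were higher in Kcnj12 than any other library of any mouse. The channel-interacting protein gene Kcnip4 had no count in either mutant or in control M1375. It had 10 counts (0.684 CPM) in control M1521 (adjusted p = 0.33 by edgeR). Kcnip4 may likewise share reads with 5730480H06Rik, a gene on the opposite strand that overlaps it and had 4258 counts in all.

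The abundant two-pore channels Kcnk13 and Kcnk6 did not pass. Kcnk13 averaged 181 ± 9.79 CPM in mutants and 218 ± 29.6 CPM in controls (log2 difference −0.27 ± 0.22 SE, adjusted p = 0.563 by edgeR). Kcnk6 averaged 275 ± 28.8 CPM in mutants and 220.2 ± 13.8 CPM in controls (0.32 ± 0.19 SE, adjusted p = 0.412). Kcnd1 stood at 56.3 and 90.0 CPM in mutants, against 99.6 and 103 CPM in controls (−0.47 ± 0.27 SE, adjusted p = 0.376), and Kcnma1, the large-conductance calcium-activated channel, averaged 19.9 ± 5.42 CPM in mutants and 15.7 ± 3.34 CPM in controls. As a share of the summed level per kilobase of all members, two-pore genes took 66.2% and 66.3% in the mutant libraries, against 74.7% and 80.9% in the controls. Kcnk12 alone took 4.66% to 4.96% in mutants and 13.1% to 20.9% in controls, and Kcnn4 took 4.45% to 9.87% in mutants and 0.255% to 0.413% in controls. The summed level itself was 198 and 207 CPM per kb in mutants, against 191 and 215 CPM per kb in controls.

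**Figure D2:**
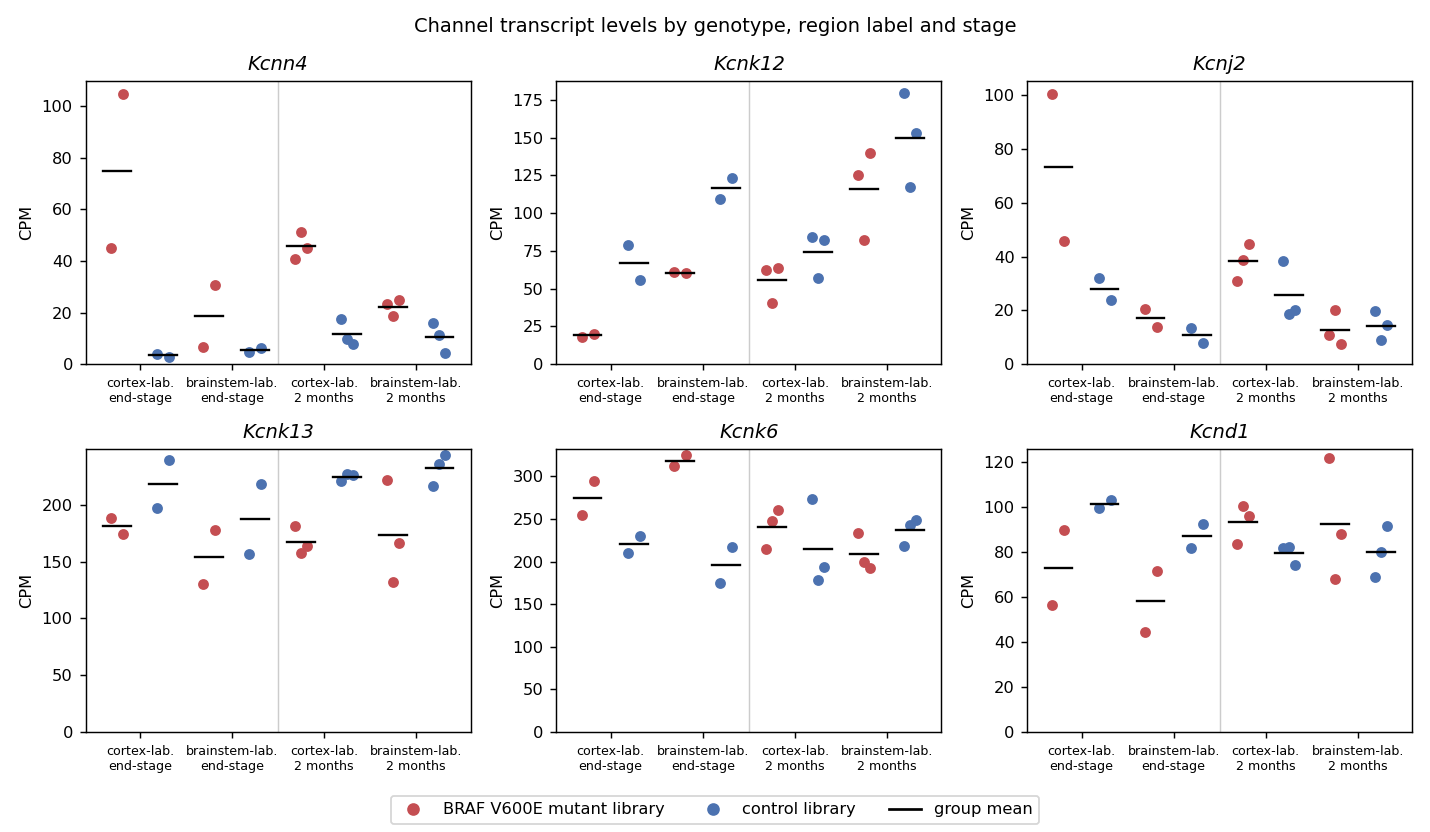
CPM of 6 potassium channel genes in each library, with mutant libraries left of control libraries in each pair of groups and black bars for group means (n = 2 at end-stage and n = 3 at 2 months). Kcnn4 averages 74.9 CPM in end-stage cortex-labelled mutants and 3.41 CPM in their controls, while Kcnk12 averages 19.2 CPM in these mutants and 67.2 CPM in these controls.

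Markers of other cells also differed between these mutants and controls, some higher and some lower in mutants. The 6 markers of border macrophages summed to between 54.7 and 273 CPM in end-stage cortex-labelled mutants, against 16.2 to 19.1 CPM in controls. Siglec1 (28.8 and 218 CPM in mutants, 3.28 and 7.25 CPM in controls) and Ms4a7 (17.7 and 45.8 CPM in mutants, 5.08 and 2.94 CPM in controls) made up most of the sum in mutants. Mrc1 stood at 2.40 and 3.64 CPM in mutants, against 2.86 and 3.42 CPM in controls, and Pf4 at 1.80 and 2.60 CPM in mutants, against 5.29 and 1.37 CPM in controls. The 5 monocyte markers summed to between 87.0 and 117 CPM in mutants, against 18.6 to 23.9 CPM in controls. Of the monocyte markers, 2 had no count in the mutants and 2 had none in the controls, and Ly6c2 was at 0 in both, while Ms4a6c made up most of the sum in mutants (84.7 and 113 CPM). The 5 markers of oligodendrocyte precursors summed to 37.3 and 88.7 CPM in mutants, almost all of it Cspg4, against 3.18 and 5.81 CPM in controls. Olig1 of the same list was lower, at 0 and 0.325 CPM in mutants and 2.96 and 3.76 CPM in controls. The 10 microglial markers summed to 41457 and 48165 CPM in mutants, against 54613 and 59677 CPM in controls. The B cell markers summed to 275 to 278.5 CPM in mutants and 766 to 842 CPM in controls, mostly Ighm. The neuron markers summed to 2.665 to 3.76 CPM in mutants and 9.74 to 22.4 CPM in controls. The T and NK cell markers summed to 0.065 to 0.327 CPM in mutants and 3.69 to 4.87 CPM in controls. In controls all of this sum was Klrd1, and the other markers of the list had no count. The 8 astrocyte markers summed to 737 and 240 CPM in mutants, against 140 and 1144 CPM in controls, nearly all of it Slc1a3, and the others went different ways. Gfap stood at 2.51 and 11.4 CPM in mutants, against 0.318 and 0.0684 CPM in controls, and Aqp4 at 0.163 and 0.065 CPM in mutants and at 0 in both controls. Aldh1l1 stood at 3.87 and 19.6 CPM in mutants, against 3.81 and 3.69 CPM in controls. Aldoc was lower, at 2.34 and 2.73 CPM in mutants and 7.30 and 8.48 CPM in controls, as was S100b, at 0.272 and 0.52 CPM in mutants and 3.49 and 1.23 CPM in controls. The part of these cells in the Kcnn4, Kcnk12 and Kcnj10 differences was not tested.

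In end-stage brainstem-labelled libraries no member passed, where 0.151% of all genes did. Among the 32 members, 6 had an unadjusted p under 0.05, as had 10.4% of all genes, and 2, Kcnk6 and Kcng2, were called by DESeq2, as were 2.65% of the genes to which it gave an adjusted p. Kcnk6 stood at 312 and 325 CPM in mutants, against 175 and 218 CPM in controls, without overlap (log2 difference 0.70 ± 0.19 SE, adjusted p = 0.15 by edgeR, 0.0269 by DESeq2). Kcnk12 stood at 61.1 and 60.2 CPM in mutants, against 109.6 and 123 CPM in controls (−0.94 ± 0.28 SE, adjusted p = 0.189). Kcnn4 was high in 1 mutant only, at 6.49 CPM in M1376 and 30.8 CPM in M1524, against 4.90 and 6.11 CPM in controls (1.76 ± 0.62 SE, adjusted p = 0.29). Kcng2, a silent subunit that modifies other voltage-gated channels, stood at 0.277 and 0.867 CPM in mutants, against 2.39 and 4.20 CPM in controls (−2.51 ± 0.74 SE, adjusted p = 0.183 by edgeR, 0.0411 by DESeq2). Kcnj10 stood at 3.16 and 10.8 CPM in mutants, against 0.857 and 0.829 CPM in controls (3.04 ± 1.20 SE, adjusted p = 0.369), and Kcnd1 at 44.5 and 71.5 CPM in mutants, against 81.6 and 92.4 CPM in controls (−0.58 ± 0.27 SE, adjusted p = 0.461). Here the border macrophage markers summed to 4.44 and 35.2 CPM in mutants, against 3.67 and 18.2 CPM in controls.

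Whether the genotype difference itself depended on the region label was tested as an interaction. No member passed at end-stage, where 0.0844% of all genes did. Of the members 4 had an unadjusted p under 0.05 and DESeq2 called 0, against 5.31% and 0.683% of all genes. The difference of Kcnn4 was larger in cortex-labelled than in brainstem-labelled libraries by 2.71 ± 0.89 SE on the log2 scale, with an adjusted p of 0.598 by edgeR. Each mouse gave both libraries, and with the mouse as a replicate block the value was 2.98 ± 0.49 SE and passed (adjusted p = 0.0187 by edgeR), as did 0.38% of all genes. The genotype difference of Kcnk12 was more negative in cortex-labelled than in brainstem-labelled libraries, by −0.86 ± 0.40 SE without the block (adjusted p = 0.923). At 2 months no member passed this interaction either, where 0.0241% of all genes did. Of the members 2 had an unadjusted p under 0.05 and DESeq2 called 0, against 8.32% and 0.655% of all genes.

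At 2 months, Kcnn4 was also higher in cortex-labelled mutant libraries. It stood at 40.8, 51.2 and 45.1 CPM in mutants M2617, M2621 and M2624, against 17.6, 9.71 and 7.92 CPM in controls M2618, M2629 and M2633. Every mutant library was above every control. The means were 45.7 ± 5.25 CPM in mutants and 11.7 ± 5.14 CPM in controls (n = 3 each), a log2 difference of 1.96 ± 0.50 SE with an adjusted p of 0.0268 by edgeR. It was the only 1 of 32 tested members that passed, where 5.45% of all genes did. This call rests on the reading of the labels, and it was lost in most fits with fewer 2-month mice. With the genotype of the sample record the Kcnn4 difference was −0.52, and it did not pass (adjusted p = 1). Without the 4 mice of conflicting genotype, which leaves 1 mouse per genotype whose spread is assumed to be that of the other groups, it was 2.22 with an adjusted p of 0.609. The call was lost without M2617, M2621, M2624, M2629 or M2633 (adjusted p = 0.0619 to 0.129 by edgeR), with log2 differences between 1.73 and 2.01. The size thus stayed near that with all mice. Each of these fits has a smaller group, and calls over all genes fell as well, from 904 to between 462 and 630. The sum of border macrophage markers moved with it, at 67.5 to 114 CPM in mutants and 2.08 to 24.8 CPM in controls. Nearly all of it was Siglec1, at 97.7, 64.7 and 109 CPM in mutants and 1.15, 4.46 and 1.85 CPM in controls. Lyve1 was at 0 in the 3 mutants, against 0, 3.40 and 4.75 CPM in controls, and Mrc1 stood at 0.122, 1.43 and 1.96 CPM in mutants, against 0.492, 6.56 and 5.61 CPM in controls. The monocyte markers summed to 116 to 167 CPM in mutants and 20.8 to 32.5 CPM in controls, mostly Plac8 and Ms4a6c in mutants. The part of these markers was not tested.

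Another 5 members had an unadjusted p under 0.05 in these libraries, which with Kcnn4 makes 6 of 32, a share near that of all genes (19.6%). Kcna3 stood at 15.7, 4.25 and 19.1 CPM in mutants, against 6.12, 2.55 and 3.10 CPM in controls, with mutant M2621 inside the control range (log2 difference 1.73 ± 0.63 SE, adjusted p = 0.125 by edgeR, 0.043 by DESeq2). Kcnj10 stood at 7.94, 2.46 and 5.30 CPM in mutants, against 0.492, 1.85 and 0.792 CPM in controls (2.30 ± 0.95 SE, adjusted p = 0.182). Kcnk13 was lower in each mutant than in each control, at 181, 157 and 164 CPM in mutants and 221, 227 and 226 CPM in controls, but it did not pass (−0.42 ± 0.18 SE, adjusted p = 0.187). Kcnip2, a channel-interacting protein, and Kcnh4, an ether-a-go-go type voltage-gated channel, averaged under 1 CPM in both groups and did not pass. Kcnk12, which fell at end-stage, stood at 62.5, 40.3 and 63.8 CPM in mutants, against 84.4, 56.96 and 82.1 CPM in controls, with overlap (−0.42 ± 0.23 SE, adjusted p = 0.33). Kcnk6 (0.17 ± 0.16 SE) and Kcnj2 (0.57 ± 0.39 SE) also did not pass.

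In 2-month brainstem-labelled libraries no member passed, where 0.0362% of all genes did. Of the members 4 had an unadjusted p under 0.05 and DESeq2 called 0, against 8.8% and 1.41% of all genes. Kcnn4 stood at 23.3, 18.8 and 24.98 CPM in mutants, against 15.8, 11.1 and 4.26 CPM in controls, without overlap (log2 difference 1.10 ± 0.49 SE, adjusted p = 0.538 by edgeR). Kcng2 stood at 2.41, 0.982 and 2.47 CPM in mutants, against 7.29, 4.61 and 8.00 CPM in controls, also without overlap (−1.77 ± 0.57 SE, adjusted p = 0.349). Kcnk13 averaged 173 ± 45.04 CPM in mutants and 232 ± 13.9 CPM in controls (−0.42 ± 0.18 SE, adjusted p = 0.501). The muscle-type voltage-gated channel gene Kcna7 had no count in the 3 mutants or in control M2629, and 0.226 and 0.701 CPM in controls M2618 and M2633 (adjusted p = 0.487).

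**Figure D3:**
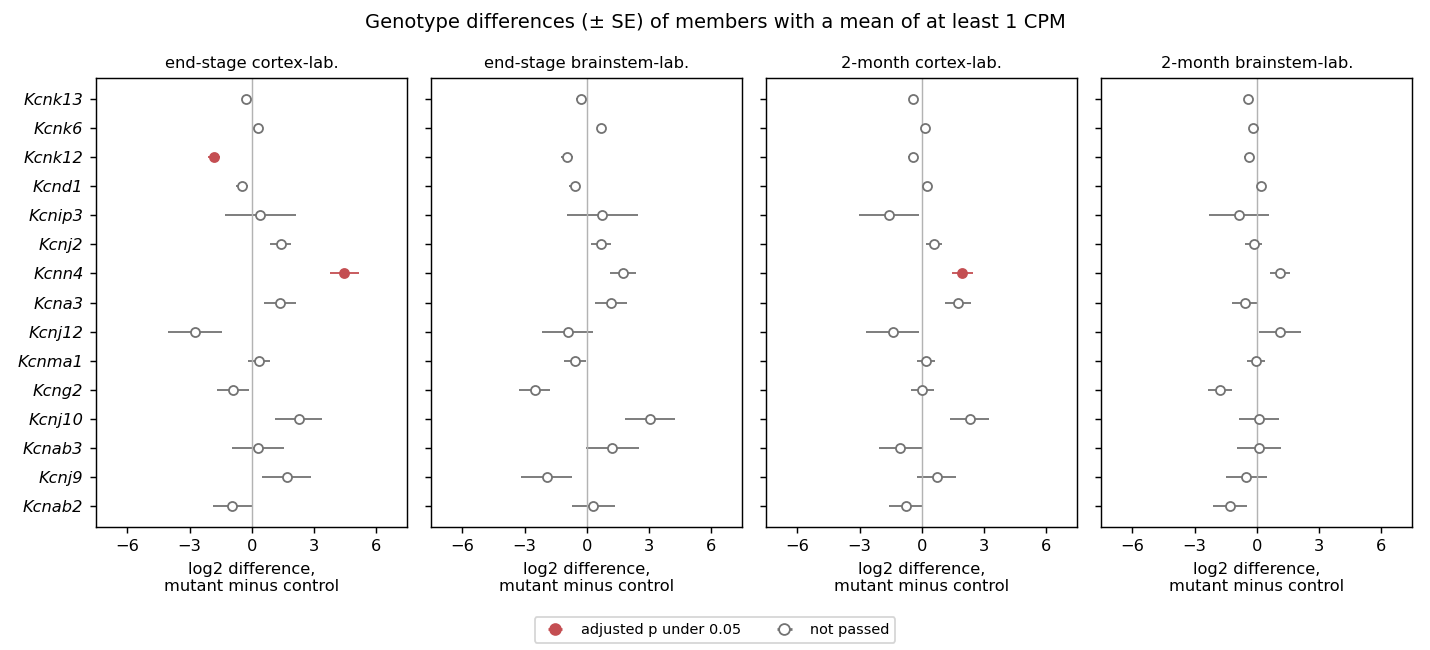
Log2 difference between mutants and controls (± SE, edgeR) of the 15 potassium channel genes with a mean of at least 1 CPM, in 4 comparisons and in order of level per kilobase; filled red points passed at an adjusted p of 0.05. Kcnn4 passed in the cortex-labelled libraries of both stages (4.47 and 1.96) and Kcnk12 in those of end-stage (−1.80).

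Kcnip3, which encodes the calcium sensor KChIP3, also called DREAM or calsenilin, varied from mouse to mouse. It had no count in both libraries of mutant M2617 and in the brainstem-labelled library of mutant M2621, and 0.717 CPM in the cortex-labelled library of M2621. Mutant M2624 stood at 21.7 CPM in the cortex-labelled and 21.5 CPM in the brainstem-labelled library. The 2-month controls ranged from 10.4 to 30.2 CPM in cortex-labelled and from 4.09 to 22.9 CPM in brainstem-labelled libraries. The mice without it are mutants by the number in the column name and controls by the sample record. Its genotype difference did not pass at 2 months in cortex-labelled (−1.59 ± 1.45 SE, adjusted p = 0.615) or brainstem-labelled libraries (−0.87 ± 1.46 SE, adjusted p = 0.903). At end-stage it stood at 55.1 and 26.8 CPM in cortex-labelled mutants, against 12.9 and 47.9 CPM in controls.

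Across all 10 mice, 6 members passed between region labels, and the leading ones went in opposite directions. Kcnk12 was lower in the cortex-labelled library of 10 of 10 mice, averaging 56.3 ± 23.7 CPM in cortex-labelled and 115 ± 38.7 CPM in brainstem-labelled libraries (n = 10 each, log2 difference −1.13 ± 0.13 SE, adjusted p = 3.02e-05 by edgeR). Its cortex-labelled values ran from 18.2 to 84.4 CPM and its brainstem-labelled values from 60.2 to 180 CPM. Kcnj2 was higher in the cortex-labelled library of 10 of 10 mice, averaging 39.4 ± 23.5 CPM in cortex-labelled and 13.7 ± 4.997 CPM in brainstem-labelled libraries (1.48 ± 0.23 SE, adjusted p = 0.000398). The cortex-labelled and brainstem-labelled ranges overlapped for both genes across mice, while the 2 libraries of each mouse did not cross. Both calls held without each mouse in turn and under the sample record, and with the mouse as a replicate block.

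Another 4 members passed at lower levels. Kcnj12 was lower in the cortex-labelled library of 10 of 10 mice, averaging 2.85 CPM in cortex-labelled and 6.54 CPM in brainstem-labelled libraries (log2 difference −2.20 ± 0.62 SE, adjusted p = 0.0235). Kcnj16, a subunit that joins Kcnj10 in pH-sensitive inward rectifiers, was lower in the cortex-labelled library of 9 mice and higher in 0, averaging 0.127 CPM in cortex-labelled and 1.19 CPM in brainstem-labelled libraries (−4.42 ± 1.06 SE, adjusted p = 0.0106). Kcnip2 was likewise lower in the cortex-labelled library of 9 mice and higher in 0, averaging 0.149 CPM in cortex-labelled and 0.575 CPM in brainstem-labelled libraries (−3.88 ± 1.12 SE, adjusted p = 0.0322). Kcnab2, a beta subunit of voltage-gated channels, was higher in the cortex-labelled library of 8 mice and lower in 2. It averaged 1.96 CPM in cortex-labelled and 0.651 CPM in brainstem-labelled libraries (1.71 ± 0.46 SE, adjusted p = 0.0189 by edgeR). Kcnab2 had 430 counts in all and may share reads with Nphp4, a gene on the opposite strand that overlaps it and had 239 counts. In all 2 members were higher and 4 lower in cortex-labelled libraries, and 14% of all genes passed in this comparison, 7.53% higher and 6.51% lower. The log2 difference averages the 4 combinations of genotype and stage on the log scale, so it need not match the ratio of the printed means. Kcnip2 had no count in the cortex-labelled end-stage controls or 2-month mutants, and Kcnj16 had none in the cortex-labelled end-stage mutants. The size of these 2 differences therefore depends on how the model treats groups at 0. With the mouse as a replicate block these 4 members passed by edgeR. The adjusted p was 0.000521 for Kcnj12, 0.00189 for Kcnj16, 0.0197 for Kcnip2 and 0.0375 for Kcnab2. That fit was not repeated without single mice. Without the block, the calls of these 4 were each lost in some fits that left out a mouse. Leaving out mouse M1376 ended all 4 calls. Without it the log2 difference was 1.67 for Kcnab2, −4.50 for Kcnip2, −2.18 for Kcnj12 and −2.38 for Kcnj16, which moved most. Without an end-stage mouse a group holds 1 mouse and the low-count filter keeps more genes, so a lost call need not mean a changed difference. Kcnab2 and Kcnip2 were also lost without M1375, M1521 or M1524, Kcnj12 without M1521 or M1524, Kcnj16 without M1375, and Kcnip2 without M2621 or M2624. Without the 4 mice of conflicting genotype all 4 were lost as well (adjusted p = 0.252 for Kcnab2, 0.0762 for Kcnip2, 0.157 for Kcnj12 and 0.228 for Kcnj16), and Kcnj12 was also lost with the genotype of the sample record (adjusted p = 0.0527).

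With the mouse as a replicate block 10 members passed between region labels, where 17.6% of all genes did. The added ones were Kcnj10 (1.71 ± 0.42 SE, adjusted p = 0.0128 by edgeR), Kcnn4 (0.71 ± 0.15 SE, adjusted p = 0.00592), Kcnip3 (0.78 ± 0.23 SE, adjusted p = 0.0336) and Kcnma1 (0.60 ± 0.17 SE, adjusted p = 0.0234), all higher in cortex-labelled libraries. Kcnip3 and Kcnma1 were each higher there in 9 of 10 mice, with Kcnip3 at 0 in both libraries of the remaining mouse. Kcnn4 was higher there in 7 of 10 mice, and the 3 others were controls, with 4.02 CPM in the cortex-labelled and 4.90 CPM in the brainstem-labelled library of M1375, 2.80 and 6.11 CPM in those of M1521 and 9.71 and 11.1 CPM in those of M2629. Kcnk13 (0.09 ± 0.10 SE, adjusted p = 0.607), Kcnk6 (0.01 ± 0.09 SE, adjusted p = 1) and Kcnd1 (0.14 ± 0.12 SE, adjusted p = 0.501) did not pass between region labels without the block.

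**Figure D4:**
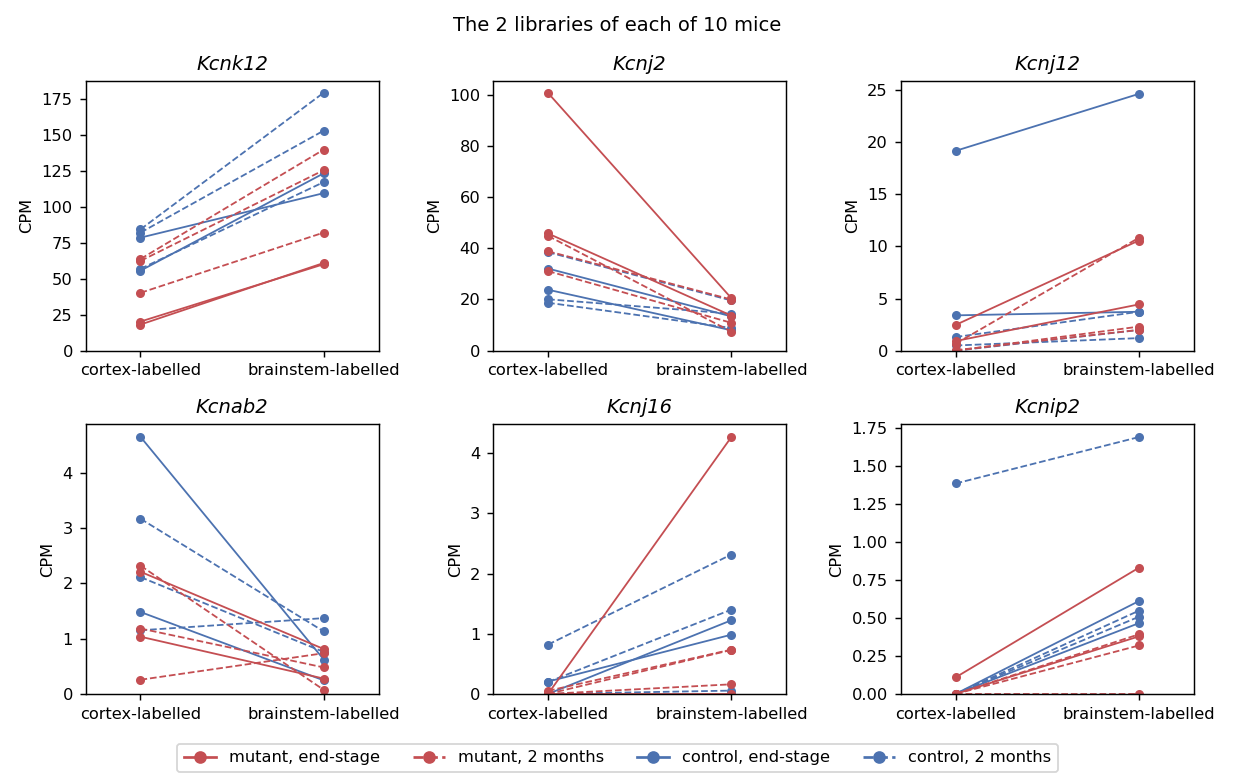
CPM of the 6 potassium channel genes that passed between region labels, with a line for each of 10 mice from its cortex-labelled to its brainstem-labelled library, colours for genotype and dashes for 2 months. The lines of Kcnk12 and Kcnj12 go up and those of Kcnj2 go down in 10 of 10 mice.

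Between stages, Kcnk12 was lower at end-stage in cortex-labelled mutant libraries. It stood at 18.2 and 20.3 CPM at end-stage, against 62.5, 40.3 and 63.8 CPM at 2 months, without overlap (log2 difference −1.53 ± 0.27 SE, adjusted p = 0.00686 by edgeR). It was the only 1 of 32 members that passed there, where 1.84% of all genes did, and the call was lost without mutant M1376 (−1.45, adjusted p = 0.128) or M1524 (−1.61, adjusted p = 0.0544). Kcnk9, a two-pore acid-sensitive channel, was among the members of smallest p, but in these libraries all of its counts came from mutant M1376 (39 counts, 2.12 CPM), with none in mutant M1524 or in the 3 mutants at 2 months (adjusted p = 0.158). In brainstem-labelled mutants no member passed, where 0.0422% of all genes did. Of the members 6 had an unadjusted p under 0.05 and 2, Kcnk12 and Kcnk6, were called by DESeq2, against 10.3% and 1.54% of all genes. Kcnk12 averaged 60.6 ± 0.625 CPM at end-stage and 116 ± 30.1 CPM at 2 months there (−0.93 ± 0.26 SE, adjusted p = 0.237 by edgeR, 0.0436 by DESeq2). Kcnk6 averaged 318 ± 9.26 CPM at end-stage and 208 ± 22.3 CPM at 2 months (0.61 ± 0.17 SE, adjusted p = 0.244).

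In controls no member passed between stages, and 0% of all genes did by edgeR in either region label. In cortex-labelled controls 3 members had an unadjusted p under 0.05 and 0 were called by DESeq2, against 8.63% and 0.268% of all genes. In brainstem-labelled controls these counts were 4 and 0, against 8.24% and 0.368% of all genes. Kcnk12 averaged 67.2 ± 16.2 CPM at end-stage and 74.5 ± 15.2 CPM at 2 months in cortex-labelled controls (−0.15 ± 0.26 SE, adjusted p = 0.911). Kcnn4 averaged 3.41 ± 0.861 CPM at end-stage and 11.7 ± 5.14 CPM at 2 months there, without overlap (−1.80 ± 0.62 SE, adjusted p = 0.5). Whether the genotype difference changed with stage was tested directly. In cortex-labelled libraries no member passed, where 0.265% of all genes did. Of the members 3 had an unadjusted p under 0.05 and 1, Kcnk12, was called by DESeq2, against 9.91% and 1.65% of all genes. The difference of Kcnk12 at end-stage minus that at 2 months was −1.38 ± 0.37 SE (adjusted p = 0.168), and that of Kcnn4 was 2.51 ± 0.81 SE (adjusted p = 0.285). In brainstem-labelled libraries no member passed either, where 0.00603% of all genes did, with 2 members at an unadjusted p under 0.05 and 0 called by DESeq2, against 4.42% and 0.11% of all genes. The labels give no litter or batch, so stage and batch cannot be told apart, and 1 of the 2 end-stage controls differs in genotype from those at 2 months.

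Genes that handle potassium or volume with these channels, or that signal through them, were taken from a list of 40, of which 30 were tested. In end-stage cortex-labelled libraries 1 rose and 1 fell, where 4.01% of all genes passed. P2ry12, the ADP receptor that couples to the THIK-1 current in microglia, averaged 1488 ± 627 CPM in mutants and 3864 ± 32.7 CPM in controls (log2 difference −1.38 ± 0.25 SE, adjusted p = 0.00448 by edgeR), and P2rx4, an ATP-gated cation channel, averaged 498 ± 119 CPM in mutants and 246 ± 13.7 CPM in controls (1.01 ± 0.19 SE, adjusted p = 0.00649). In 2-month cortex-labelled libraries 4 rose and 1 fell, where 5.45% of all genes passed. P2rx4 (0.66, adjusted p = 0.0184) and the potassium-chloride cotransporter gene Slc12a4 (1.02, adjusted p = 0.0402) were among those that rose, and P2ry12 fell by 1.10 (adjusted p = 0.00391). In brainstem-labelled libraries none of the 30 passed, with 8 at end-stage and 3 at 2 months at an unadjusted p under 0.05, against 10.4% and 8.8% of all genes. Between region labels 4 were higher and 1 lower in cortex-labelled libraries, where 14% of all genes passed, with P2rx4 (0.95, adjusted p = 4.16e-06) among the higher and P2ry12 (−1.16, adjusted p = 6.25e-06) the lower. In cortex-labelled mutants P2rx4 was higher (0.73, adjusted p = 0.0391) and P2ry12 lower (−0.96, adjusted p = 0.0404) at end-stage than at 2 months, and no other gene of the list passed. The median log2 difference of the 30 was 0.13 in end-stage cortex-labelled libraries.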

How the data were processed

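The authors deposited raw counts per gene for 20 libraries of SMART-Seq v4 cDNA, with no normalization. Per the submitters' processing notes, the tools were FastQC, Subread and edgeR on build mm10, with no version stated. The annotation, strand setting and treatment of multi-mapping reads are not given in the sources used here, so overlapping genes can share reads. Of 55487 identifiers 55394 matched GENCODE M21, and the 93 others held 0.00123% of counts.

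Tests used edgeR 4.0.16 with R 4.3.3 (filterByExpr, TMM, 1 quasi-likelihood model over 8 groups, Benjamini-Hochberg over 16595 genes), with DESeq2 1.42.0 and the settings named in the closing section as alternatives. Library totals of 9395203 to 21171114 counts set a limit of 0.147 to 0.318 CPM at 3 counts, which covers counting error only. Levels per kilobase used the union of exons. In simulated data edgeR called 56.5% of 200 changed genes in end-stage cortex-labelled libraries, with 4.24% of its calls false. DESeq2 called 61.0% with 15.9% false. The changed genes were drawn from those with an average log2 CPM over 2, so these shares do not cover the 17 tested members under 1 CPM. Counts were drawn with edgeR's fitted dispersions and with no link between a mouse's libraries, which can favour edgeR. A call by DESeq2 alone is treated as less certain. A mouse's 2 libraries come from the same animal, and their deviations from group means correlated at 0.128 to 0.357.

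Members were named if they passed in any of 13 comparisons, were among the smallest p or the highest levels, or are known from microglia. Membership follows the symbol alone, but the family, the rule for naming members and the lists were chosen with earlier results of these data known. Some genes of the partner list that passed are not reported here.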

Additional observations from a re-analysis of the deposited data

Results flagged for a closer look

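The genotype difference of Kcnn4 at end-stage differed between region labels in the model with the mouse as a replicate block, by 2.98 ± 0.49 SE on the log2 scale (adjusted p = 0.0187 by edgeR), and was larger in cortex-labelled libraries. Mutants stood at 45.1 and 105 CPM in cortex-labelled and at 6.49 and 30.8 CPM in brainstem-labelled libraries, against 4.02 and 2.80 CPM and 4.90 and 6.11 CPM in controls. The cortex-labelled library was the higher in both mutants and the brainstem-labelled library in both controls. Without the block the value was 2.71 ± 0.89 SE and did not pass (adjusted p = 0.598).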

How the results depend on the processing

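The calls of Kcnn4 and Kcnk12 in end-stage cortex-labelled libraries and of Kcnk12 and Kcnj2 between region labels held under all 16 alternatives run for each. For the end-stage calls, alternatives that relabel or leave out only 2-month mice change no compared library. Of 958 alternative values for 62 pairs of gene and comparison, 930 kept their direction and 876 also their side of the threshold. Without a low-count filter, 88 members and 33450 genes in all were tested. Between genotypes this called 5 members and 1282 of all genes in end-stage cortex-labelled libraries, and 3 and 574 in end-stage brainstem-labelled libraries. At 2 months it called 6 and 1551 in cortex-labelled and 1 and 499 in brainstem-labelled libraries. Between region labels 15 and 2872 were called. Between stages the calls were 5 and 963 in cortex-labelled and 3 and 423 in brainstem-labelled mutants. In controls they were 3 and 282 in cortex-labelled and 1 and 270 in brainstem-labelled libraries. For genotype by region they were 1 and 221 at end-stage and 1 and 350 at 2 months. For genotype by stage they were 3 and 565 in cortex-labelled and 1 and 190 in brainstem-labelled libraries. DESeq2 called 3 members in end-stage cortex-labelled libraries, where it called 1203 of 13356 genes. It called 2 in end-stage brainstem-labelled libraries (354 of 13356 genes) and 2 in 2-month cortex-labelled libraries (1562 of 14320 genes). Between region labels it called 7 (2957 of 16250 genes). It called 2 between stages in brainstem-labelled mutants (196 of 12714 genes) and 1 for genotype by stage in cortex-labelled libraries (242 of 14641 genes). By the sample record 0 members were called in 2-month cortex-labelled libraries. The record called 1 between stages in brainstem-labelled mutants and 1 for genotype by stage in cortex-labelled libraries, the last 2 being Kcnk12. Of 16595 genes 8 and 75 were called in these comparisons by the record. Without the 4 mice of conflicting genotype 0 were called in 2-month cortex-labelled libraries. The mouse as a replicate block gave 10 between region labels and 1 for genotype by region at end-stage, and it could not be fitted for genotype or stage, which do not vary within a mouse. Leaving out a mouse gave 0 to 1 in 2-month cortex-labelled libraries, 2 to 7 between region labels and 0 to 2 between stages in cortex-labelled mutants.

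Under the sample record the 2-month log2 differences in cortex-labelled libraries turned round to −3.91 for Kcnh4, 5.96 for Kcnip2, −0.88 for Kcnj10, 0.11 for Kcnk13, −0.03 for Kcnma1 and −0.52 for Kcnn4. In brainstem-labelled libraries they turned round to 0.06 for Kcna3, 5.44 for Kcna7, 1.15 for Kcng2, −5.32 for Kcnh2, −3.41 for Kcnj10, 0.06 for Kcnj2, 0.54 for Kcnk12, 0.09 for Kcnk13 and −0.24 for Kcnn4. Without the 4 mice of conflicting genotype Kcnj10 (−8.14) and Kcnk12 (0.25) turned round there. Leaving out a mouse turned round Kcna3 in end-stage brainstem-labelled libraries (−0.18 to 1.95), Kcnma1 in 2-month cortex-labelled libraries (−0.11 to 0.50), and Kcnj10 (−1.22 to 2.12), Kcnj2 (−0.64 to 0.13) and Kcnma1 (−0.58 to 0.30) in 2-month brainstem-labelled libraries; none of these had passed. The cause was not tested. By the record 1 gene of 16595 was called in 2-month cortex-labelled libraries, against 904 by the number in the column name. The 17 tested members with a mean under 1 CPM are limited by depth.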
